A study of Mus musculus with 6 samples.

Results

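Planar cell polarity genes were followed in tumors of NeuT/ATTAC mice given IgG or anti-PD-1 mAb. The set held 10 genes of the 54532 gene IDs in the deposited values, namely the cadherins Celsr1, Celsr2 and Celsr3, the membrane proteins Vangl1 and Vangl2, the cytoplasmic adaptors Prickle1, Prickle2 and Prickle3, the scaffold Scrib and the receptor-like Ptk7. They were chosen by name, through the GRCm38 annotation, after Celsr1 had been seen to separate the groups. The difference in Celsr1 is therefore the reason for the selection and is given as a description with no test.

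NeuT/ATTAC mice are a cross of MMTV-NeuT mice, in which the MMTV promoter drives Erbb2 in mammary epithelium, with FAT-ATTAC mice, in which the dimerizing drug AP20187 ablates mammary fat and leads to fibrosis, and the cross was kept on the FVB background. Mice of both groups carried both transgenes and received 0.4 mg/kg AP20187 i.p. from 6 weeks of age. From 8 weeks of age, 100 μg of an isotype-matched IgG (3 libraries) or of the anti-PD-1 mAb (3 libraries) was injected i.p. Each RNAseq library is called a tumor here, and the age at collection was not given with the samples. In a legend of the study the RNA is said to have been pooled within groups, but 3 libraries per group were deposited. Nothing else states that replicates are separate animals, so p-values measure the spread between these libraries, which may in part be technical.

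Planar cell polarity is the alignment of cells within the plane of a tissue, at right angles to their apical-basal axis. Celsr cadherins bind one another across cell borders, where Vangl and Prickle proteins gather on one side of a cell and Frizzled and Dishevelled proteins on the other. The system is a β-catenin-independent branch of Wnt signaling, is needed for convergent extension in the embryo, and takes part in branching of the mammary gland.

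Values are FPKM (fragments scaled by exon length and library size), which allow levels of different genes to be compared per length, divided by scaling factors that lay between 1.00 and 1.01. The reads that could be recovered from them came to between 20009700 and 23102293 per tumor. They are back-calculated from FPKM and exon length and may differ from the counts the study made. Fold changes are differences of log2(FPKM + 1), anti-PD-1 minus IgG, from limma over the 15069 genes whose mean FPKM reached 0.5, and they understate changes where FPKM is low. A gene was counted as higher or lower when its unadjusted p was under 0.05 with a change of at least 1.5-fold. These are the p-value and fold of the study, applied here to log2(FPKM + 1) and without the further limit on a raw score that the study set. The luminal epithelial markers Epcam (683 to 1142 FPKM over the 6 tumors) and Erbb2 (20.2 to 31.3 FPKM) were expressed in every tumor. The summed FPKM of 10 luminal markers ran from 2231 to 3144 in IgG and from 3234 to 4093 in anti-PD-1 tumors, with no overlap, although 0 of the 10 genes were higher and 1 (Krt19) was lower past the threshold. In bulk tumors fewer cells of a type and less RNA per cell cannot be told apart, and the part of the epithelial share in the results was not tested.

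Promoters in RefSeq (GRCm38.p6, 250 bases before to 50 after a start) matched 7 of the 10 members, in 11 windows, while the table used here held none for Celsr1, Vangl1 and Scrib. For the 2 members that were lower without overlap between the groups, the window at the 5′ end of the gene is printed, in the direction of transcription, with the motifs found on either strand in capitals. In Celsr2 (chr3:108415530-108415829, minus strand) the capitals mark CAGGTG, an E-box. In the first of 4 Prickle2 windows (chr6:92706135-92706434, minus strand) they mark the GC box GGGCGG or its complement CCGCCC.
Celsr2: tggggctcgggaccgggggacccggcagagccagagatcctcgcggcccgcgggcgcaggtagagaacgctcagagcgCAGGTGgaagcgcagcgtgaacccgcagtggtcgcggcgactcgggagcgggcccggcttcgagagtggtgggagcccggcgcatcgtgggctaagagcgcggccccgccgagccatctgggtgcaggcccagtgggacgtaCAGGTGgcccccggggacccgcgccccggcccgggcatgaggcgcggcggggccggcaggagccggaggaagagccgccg
Prickle2: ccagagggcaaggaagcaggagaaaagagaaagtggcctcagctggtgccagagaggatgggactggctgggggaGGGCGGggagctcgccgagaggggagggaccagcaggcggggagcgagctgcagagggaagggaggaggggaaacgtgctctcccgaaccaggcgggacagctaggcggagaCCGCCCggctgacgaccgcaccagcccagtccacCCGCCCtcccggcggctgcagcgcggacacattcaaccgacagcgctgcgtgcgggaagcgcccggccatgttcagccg

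The Celsr2 window held 2 E-boxes and no GC box, and its 40 CpG dinucleotides exceeded those of 96.1% of the 32851 windows in the table. The printed Prickle2 window held 3 GC boxes, no E-box and 25 CpG. Of all windows, 20.2% held CAGGTG and 35.7% held GGGCGG on either strand. Neither printed window held the TCF/LEF core CTTTGA, present in 16.0% of all windows, or TATAAA, present in 13.6%. The 3 other Prickle2 windows lie within the gene, and 1 of them (chr6:92567317-92567616) held a TCF/LEF core and 2 GC boxes. A match of letters is a description and not a bound site.

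Celsr1 was the member with the widest separation. Celsr1 (ENSMUSG00000016028, chromosome 15 from 85898929 to 86033777, GRCm38) had an FPKM of 0.925, 0.560 and 0.900 in tumors 1 to 3 under IgG and of 2.57, 3.27 and 4.16 in tumors 1 to 3 under anti-PD-1. The reads recovered from these values were 226, 149 and 244 under IgG and 725, 879 and 1095 under anti-PD-1. The lowest anti-PD-1 tumor was higher than the highest IgG tumor, and the mean FPKM was 0.795 ± 0.204 (SD, n = 3) in IgG and 3.33 ± 0.800 (SD, n = 3) in anti-PD-1 tumors, 4.19-fold higher. On the log2(FPKM + 1) scale the difference was 1.26 (standard error 0.21), and it lay between 1.10 and 1.39 under the 13 other settings that kept this scale. On the log2(FPKM + 0.1) scale the difference was 1.94, and with voom on recovered reads it was 2.06.

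Celsr2, the paralog with the highest level of the family, went the other way. Celsr2 (ENSMUSG00000068740, chromosome 3 from 108390851 to 108415552) had an FPKM of 12.7, 25.6 and 19.0 under IgG and of 10.9, 9.68 and 11.8 under anti-PD-1, so that all anti-PD-1 tumors lay below all IgG tumors. The log2 fold change was -0.72 (standard error 0.25, unadjusted p = 0.0233, limma adjusted p = 0.366). The IgG tumors were spread more widely, at 19.1 ± 6.43 FPKM (SD, n = 3), than the anti-PD-1 tumors, at 10.8 ± 1.08 FPKM (SD, n = 3). Celsr2 did not pass the threshold when IgG replicate 2, IgG replicate 3, anti-PD-1 replicate 1 or anti-PD-1 replicate 2 was left out, and its log2 fold change without IgG replicate 2 was -0.49. Celsr3 (ENSMUSG00000023473, chromosome 9 from 108826320 to 108852969), which is best known from neurons, had 4, 8 and 7 reads under IgG and 1, 0 and 6 reads under anti-PD-1 and was too low to be tested.

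Set against the sum of the 3 Celsr genes, Celsr1 made up 6.78%, 2.14% and 4.52% of the FPKM in tumors 1 to 3 under IgG and 19.0%, 25.3% and 26.0% in those under anti-PD-1. The share was 4.48% ± 2.32 (SD, n = 3) in IgG and 23.4% ± 3.83 (SD, n = 3) in anti-PD-1 tumors, and Celsr2 remained the larger part in every tumor. This share contains the values that selected Celsr1 and was not tested. The summed Celsr FPKM was 19.9 ± 6.25 (SD, n = 3) in IgG and 14.2 ± 1.63 (SD, n = 3) in anti-PD-1 tumors, with ranges that overlapped. The sum contains Celsr1 and was not tested either.

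**Figure D1:**
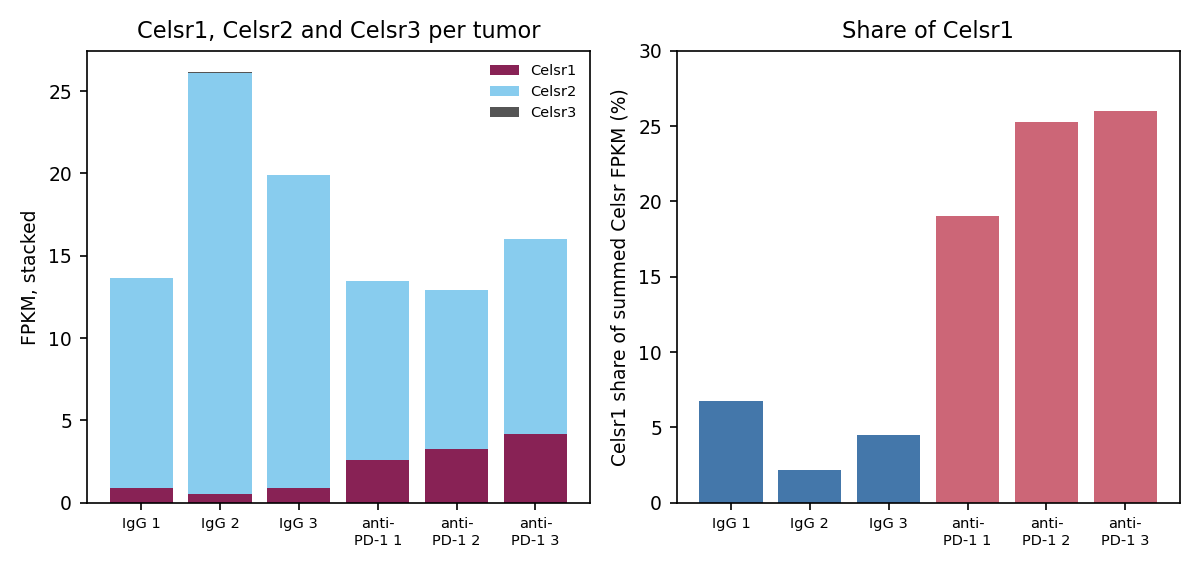
FPKM of Celsr1, Celsr2 and Celsr3 stacked for each tumor (left) and the share of Celsr1 in their sum in percent (right), with 1 bar per tumor and no error bar. The share lies between 2.14% and 6.78% in the IgG tumors and between 19.0% and 26.0% in the anti-PD-1 tumors, and Celsr3 is barely visible.

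The Vangl genes encode four-pass membrane proteins at the core of the pathway, and neither passed the threshold. Vangl1 (ENSMUSG00000027860, chromosome 3 from 102153583 to 102204693) had an FPKM of 5.74, 4.91 and 4.73 under IgG and 6.47, 5.82 and 4.75 under anti-PD-1, with overlapping groups. Its log2 fold change was 0.12 (95% interval -0.28 to 0.52, limma adjusted p = 0.800). Vangl2 (ENSMUSG00000026556, chromosome 1 from 172000960 to 172028444) had an FPKM of 10.1, 1.89 and 3.01 under IgG and 3.43, 2.99 and 2.10 under anti-PD-1. IgG replicate 1 stood above the 5 other tumors, and the log2 fold change of -0.41 (95% interval -1.52 to 0.70, limma adjusted p = 0.750) turned to 0.16 without it. In that tumor Vangl2 was 63.7% of the summed Vangl FPKM, against 27.8% to 38.9% in the others.

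The Prickle genes encode LIM-domain proteins that bind Vangl, and Prickle2 was the one that was lower. Prickle2 (ENSMUSG00000030020, chromosome 6 from 92370908 to 92706155) had an FPKM of 2.69, 4.25 and 5.42 under IgG and 2.37, 1.63 and 2.66 under anti-PD-1. The groups did not overlap, but they nearly met, since 2.66 in anti-PD-1 replicate 3 lay just under 2.69 in IgG replicate 1. The log2 fold change was -0.65 (standard error 0.25, unadjusted p = 0.0364, limma adjusted p = 0.387). Prickle2 did not pass the threshold when IgG replicate 2, IgG replicate 3, anti-PD-1 replicate 1 or anti-PD-1 replicate 2 was left out, nor when the filter on low FPKM was dropped.

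Prickle1 (ENSMUSG00000036158, chromosome 15 from 93499114 to 93595891) had an FPKM of 4.27, 5.34 and 4.79 under IgG and 3.51, 3.98 and 9.07 under anti-PD-1. Anti-PD-1 replicate 3 was the highest, and the log2 fold change of 0.07 (standard error 0.31, limma adjusted p = 0.942) became -0.29 without it. Prickle3 (ENSMUSG00000031145, chromosome X from 7657260 to 7668186) had an FPKM of 2.05, 1.78 and 2.96 under IgG and 1.88, 2.68 and 2.44 under anti-PD-1, and its log2 fold change was 0.04 (standard error 0.21, limma adjusted p = 0.954). Plp2, on the opposite strand, shares 246 exon bases with Prickle3 and had 1089 to 1927 reads per tumor against 211 to 358 for Prickle3. Whether strand was used in counting was not given in the sources used here, so the values of Prickle3 are uncertain. The summed Prickle FPKM was 11.2 ± 2.09 (SD, n = 3) in IgG and 10.1 ± 3.56 (SD, n = 3) in anti-PD-1 tumors (two-sided exact permutation test, p = 0.7, where 3 tumors against 3 cannot go below 0.1).

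Scrib, a scaffold of the basolateral membrane that also binds Vangl2, and Ptk7, a kinase-dead receptor that acts with Wnt ligands in planar polarity, had higher means in anti-PD-1 tumors without passing the threshold. Scrib (ENSMUSG00000022568, chromosome 15 from 76047158 to 76069784) had an FPKM of 12.3, 10.8 and 15.5 under IgG and 16.5, 12.2 and 18.9 under anti-PD-1, and the groups overlapped. Its log2 fold change was 0.27 (95% interval -0.23 to 0.77, limma adjusted p = 0.621). Ptk7 (ENSMUSG00000023972, chromosome 17 from 46564471 to 46629504) had an FPKM of 41.6, 31.2 and 32.5 under IgG and 50.2, 39.0 and 41.3 under anti-PD-1. IgG replicate 1 lay within the range seen under anti-PD-1, and the log2 fold change was 0.30 (95% interval -0.12 to 0.73, limma adjusted p = 0.521).

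**Figure D2:**
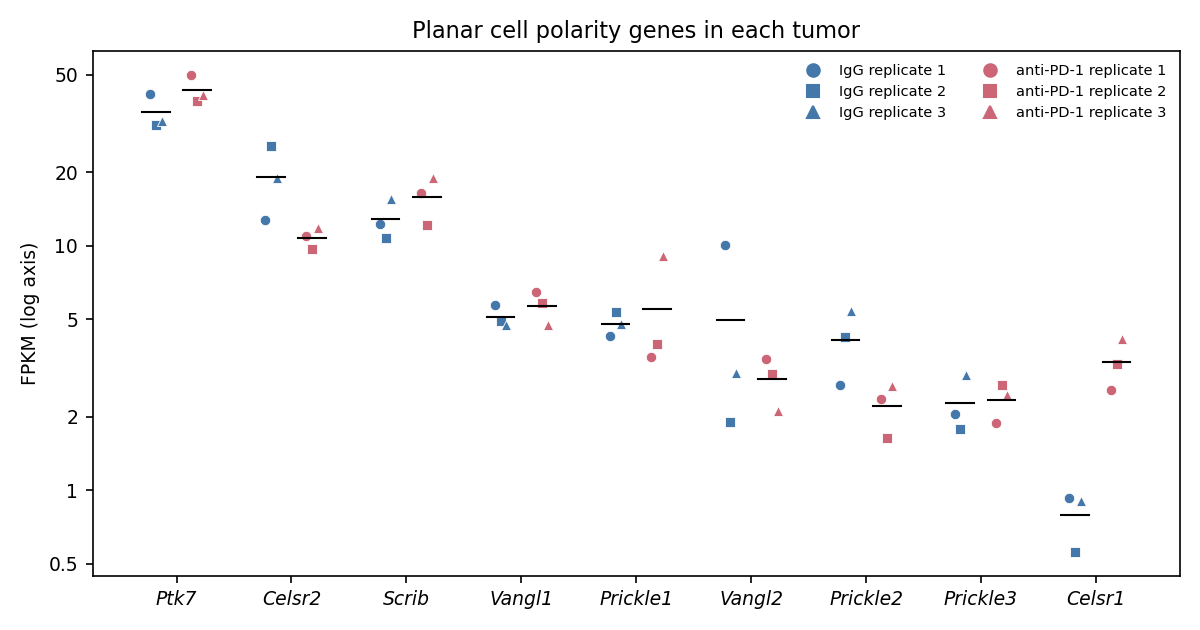
FPKM of 9 planar cell polarity genes (Celsr3 is left out as too low) on a log axis, with 1 point per tumor, symbols for the replicate number and a horizontal line at the mean of each group of 3. The IgG and anti-PD-1 points are apart for Celsr1, Celsr2 and Prickle2, with a narrow gap of 2.66 against 2.69 in Prickle2, and mixed for the 6 other genes.

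Of the 10 members, 9 passed the filter on low FPKM, and Celsr1, which selected the set, was left out of the counts. Of the 8 others, 0 were higher and 2 (Celsr2 and Prickle2) were lower past the threshold, beside 3.9% of all tested genes that were higher and 4.53% that were lower. The groups did not overlap for the same 2 genes, both lower, beside 9.3% of all tested genes without overlap and higher and 8.75% without overlap and lower. At a limma adjusted p under 0.05 the number called among these 8 was 0, beside 0% of the 15069 genes, while 1848 genes had an unadjusted p under 0.05, with Celsr2 and Prickle2 among them. The 8 members had a median log2 fold change of 0.06, beside 0.01 over all tested genes, and 5 of the 8 were above 0, beside 7651 of the 15069.

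With both groups pooled, the order of the levels was Ptk7 (mean 39.3 FPKM over the 6 tumors), Celsr2 (14.9 FPKM), Scrib (14.4 FPKM), Vangl1 (5.40 FPKM), Prickle1 (5.16 FPKM), Vangl2 (3.91 FPKM), Prickle2 (3.17 FPKM), Prickle3 (2.30 FPKM), Celsr1 (2.06 FPKM) and Celsr3 (0.0150 FPKM). Ptk7 lay above Celsr2, Scrib above Vangl1 and Celsr1 above Celsr3 in 6 of 6 tumors. The pairs were ordered by these same values, so this is a description with no test. The other 6 neighbouring pairs had ranges that overlapped. Celsr2 and Scrib, for example, were each the higher in 3 of 6 tumors. The order of the group means was not the same in IgG and anti-PD-1 tumors. Celsr1 (0.795 FPKM under IgG) lay above Celsr3 alone in IgG tumors, whereas its mean of 3.33 FPKM under anti-PD-1 lay above those of Vangl2 (2.84 FPKM), Prickle3 (2.33 FPKM) and Prickle2 (2.22 FPKM). Celsr2 lay above Scrib under IgG (19.1 against 12.9 FPKM) and below it under anti-PD-1 (10.8 against 15.9 FPKM).

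Celsr1, Prickle1 and Scrib lie on chromosome 15, and each was highest in anti-PD-1 replicate 3. In that tumor the median of the 630 tested genes of chromosome 15 stood 0.34 above the median of all genes on the log2 scale, relative to the mean of the 6 tumors, against -0.16 to 0.01 in the other tumors. The median log2 fold change of the chromosome was 0.17, whereas the chromosomes of the other tested members had medians from -0.01 (chromosome X) to 0.07 (chromosome 17). After the median of each chromosome was removed in each tumor, the log2 fold change of Celsr1 was 1.10, that of Scrib 0.11 and that of Prickle1 -0.090. Celsr2 at -0.73 and Prickle2 at -0.70 then kept their direction and stayed past the threshold.

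**Figure D3:**
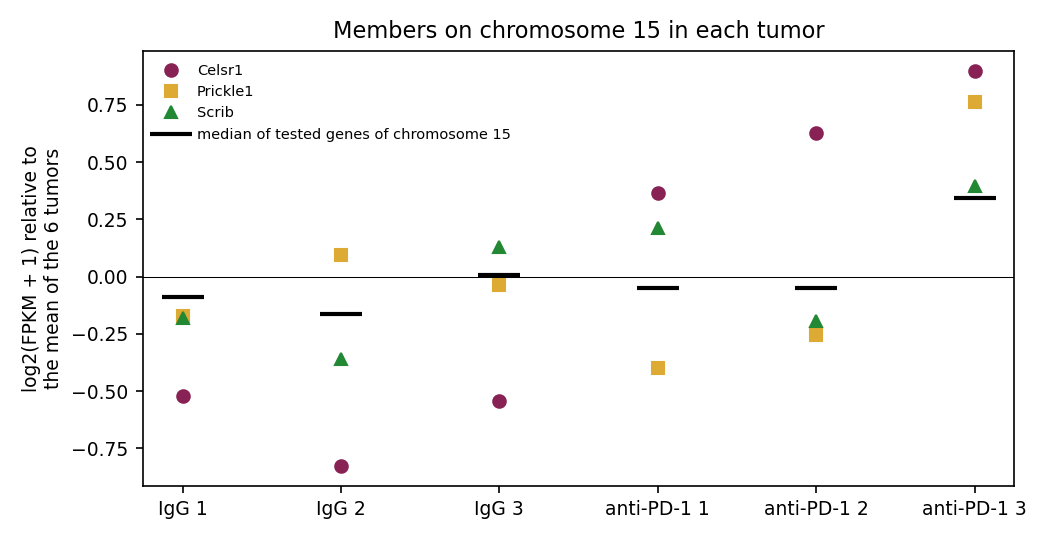
log2(FPKM + 1) of Celsr1, Prickle1 and Scrib in each of the 6 tumors relative to the mean of the tumors, with a bar at the median of the tested genes of chromosome 15. All 3 genes and the bar, at 0.34, are highest in anti-PD-1 replicate 3, and Celsr1 is above the bar in each anti-PD-1 tumor and below it in each IgG tumor.

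The genes around the members that differed did not move as one. The 5 nearest tested coding genes on each side of Celsr1, up to 2802 kb away, had log2 fold changes from -0.92 (Gramd4) to 0.97 (Gtse1) with a median of 0.06. Around Celsr2 the 5 on each side ranged from -0.90 to 1.32 with a median of 0.01, and around Prickle2 from -0.53 to 0.49 with a median of -0.01. These 3 members are shown because they differed. Around Prickle1, which did not pass the threshold, the median was 0.26, above the 0.07 of Prickle1 itself.

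**Figure D4:**
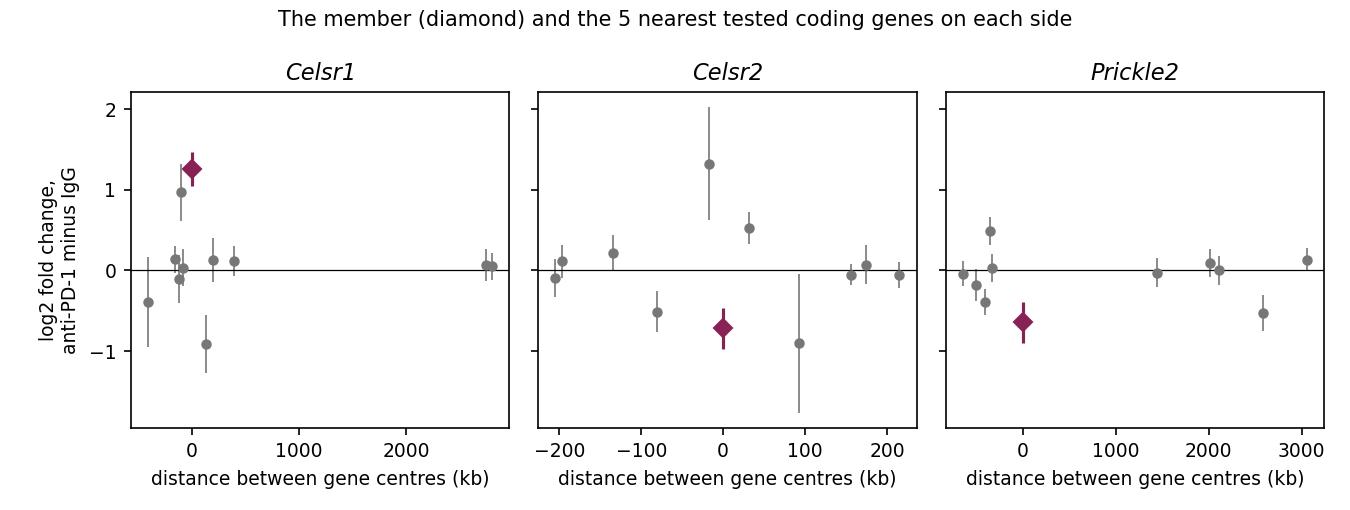
log2 fold change (anti-PD-1 minus IgG, bars for the standard error) of Celsr1, Celsr2 and Prickle2 (diamonds) and of the 5 nearest tested coding genes on each side (circles) against the distance between gene centres in kb. The neighbours lie on both sides of 0, with medians of 0.06, 0.01 and -0.01, while the members are at 1.26, -0.72 and -0.65.

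The pattern of Celsr1 over the 6 tumors was most like those of Mmab (Pearson r = 0.994), Trappc12 (r = 0.992) and Ache (r = 0.991) among all tested genes, and most opposite to those of Gm43461 (r = -0.989), Zfp426 (r = -0.981) and Med13 (r = -0.981). These are descriptions over 6 tumors that fall into 2 groups, picked as extremes of 15069 genes. Among the members, Celsr2 (r = -0.811) and Prickle2 (r = -0.729) ran opposite to Celsr1, and Ptk7 (r = 0.621) and Scrib (r = 0.609) ran with it. The values were weaker for Prickle1 (r = 0.279), Prickle3 (r = 0.273), Vangl1 (r = 0.250) and Vangl2 (r = -0.264). Each r contains the difference of Celsr1 between the groups, which selected the set, and was not tested.

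Another 64 genes that work with the members were taken as 6 lists, of which 53 genes were tested. Of these, 4 were higher (3.9% of all tested genes) and 3 were lower (4.53% of all), and the median log2 fold change was -0.08. Of the 53 genes, 0 had a limma adjusted p under 0.05 and 9 an unadjusted p under 0.05, beside 1848 of all 15069 tested genes at that unadjusted p. Leaving out IgG replicate 2 gave 1 higher gene and 0 lower genes, and leaving out IgG replicate 1 gave 6 of each. The higher genes also numbered 2 without IgG replicate 3 or anti-PD-1 replicate 3, and the lower genes 5, 1 and 0 without anti-PD-1 replicates 1, 2 and 3. Among the 53 tested genes the groups did not overlap for 5 that were higher and 6 that were lower, beside the 9.3% and 8.75% of all genes given above.

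Among 8 Frizzled receptors, Dishevelled adaptors and their partners, Fzd2 was higher and Dvl1 lower. Fzd2, a receptor of Wnt5a, had an FPKM of 9.37, 6.35 and 6.80 under IgG and 13.9, 11.9 and 10.9 under anti-PD-1, without overlap (log2 fold change 0.65, standard error 0.19, limma adjusted p = 0.344). Dvl1 overlapped between the groups, with 17.1, 30.4 and 20.9 FPKM under IgG and 17.7, 10.9 and 11.9 FPKM under anti-PD-1 (log2 fold change -0.70, limma adjusted p = 0.377). Fzd7 (mean 33.8 FPKM, log2 fold change 0.04) and Fzd6 (18.6 FPKM, log2 fold change -0.02), the receptors with the highest levels, did not pass the threshold.

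Of 8 noncanonical Wnt ligands and co-receptors, 7 were tested and 2 were higher, both of them glypicans, which are cell-surface heparan sulfate proteoglycans. Gpc4 had an FPKM of 35.0, 27.0 and 30.1 under IgG and 65.0, 52.2 and 46.6 under anti-PD-1, without overlap (log2 fold change 0.81, standard error 0.18, limma adjusted p = 0.344). Gpc6, which the rule for naming genes left out and which is named here after its values were seen, had 1.85, 0.161 and 0.568 FPKM under IgG and 1.84, 3.17 and 2.95 FPKM under anti-PD-1, with an overlap at IgG replicate 1. The ligand Wnt5a, also outside that rule, is reported as increased by the study. It had 8.25, 4.55 and 1.82 FPKM under IgG and 6.05, 6.13 and 7.97 FPKM under anti-PD-1, with overlap (log2 fold change 0.55, limma adjusted p = 0.607), and did not pass the threshold. The receptor Ryk (mean 17.0 FPKM, log2 fold change -0.58) and the ligand Wnt5b (14.6 FPKM, log2 fold change -0.77) did not pass the threshold. Ryk lies on chromosome 9, as do Celsr3 and, among the genes below, Rhoa and Fat3. The median log2 fold change of the 798 tested genes of that chromosome was -0.36.

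Of 19 genes of the Scribble module and of apical-basal polarity, 16 were tested. Arhgef7, an exchange factor that binds Scrib, was higher, with 8.92, 4.96 and 6.38 FPKM under IgG and 11.1, 9.14 and 14.7 FPKM under anti-PD-1 (log2 fold change 0.71, standard error 0.25, limma adjusted p = 0.365). Prkcz, an atypical protein kinase C of the Par complex, was lower, with 2.78, 5.13 and 6.02 FPKM under IgG and 2.62, 2.43 and 1.99 FPKM under anti-PD-1 (log2 fold change -0.71, limma adjusted p = 0.370). Patj, a scaffold of the Crumbs complex, was lower too, with 5.53, 8.43 and 8.16 FPKM under IgG and 4.43, 4.72 and 3.69 FPKM under anti-PD-1 (log2 fold change -0.65, limma adjusted p = 0.347). The groups did not overlap for these 3 genes, and Git1, Crb3 and Prkci, the highest of the list, had log2 fold changes of 0.41, 0.18 and -0.70 and did not pass the threshold.

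Dvl1, Prkcz and Patj, the 3 genes counted as lower, all lie on chromosome 4, where the median log2 fold change of 926 tested genes was -0.40. With the chromosome medians removed the log2 fold changes were -0.30 for Dvl1, -0.31 for Prkcz and -0.25 for Patj, and 0 of the 64 genes were lower past the threshold. Of the higher genes, Gpc4 (0.81), Gpc6 (1.02) and Arhgef7 (0.72) stayed past it, and Fzd2 (0.58) fell just short of 1.5-fold.

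In the remaining 3 lists no gene passed the threshold. Among 14 planar polarity effectors, 13 of them tested, the small GTPases Cdc42 (mean 92.4 FPKM, log2 fold change -0.51), Rac1 (56.5 FPKM, log2 fold change 0.34) and Rhoa (28.6 FPKM, log2 fold change -0.14) were the highest. Of these, Cdc42 was below every IgG tumor and Rac1 above every IgG tumor in all 3 anti-PD-1 tumors, and Cdc42 also lies on chromosome 4. Among 8 genes of Vangl trafficking and Dishevelled turnover, 7 of them tested, Dact2 (39.5 FPKM, log2 fold change 0.57), Smurf2 (22.0 FPKM, log2 fold change -0.21) and Smurf1 (18.8 FPKM, log2 fold change 0.12) were the highest. Of 7 genes for Fat and Dachsous cadherins and their kinase Fjx1, only Fat1 (13.2 FPKM, log2 fold change 0.18) and Dchs1 (0.507 FPKM, log2 fold change -0.17) were high enough to be tested, and Fjx1 had a mean of 0.349 FPKM. Fjx1 had 0.417, 0.383 and 0.583 FPKM under IgG and 0.249, 0.235 and 0.227 FPKM under anti-PD-1. Fat2, Fat3 and Fat4, named after their values were seen, also lay lower in the anti-PD-1 tumors without overlap, and these 4 untested genes had 0 to 139 recovered reads per tumor. Of all 13663 genes above 0 in a tumor but under the filter, 3.86% lay lower without overlap.

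**Figure D5:**
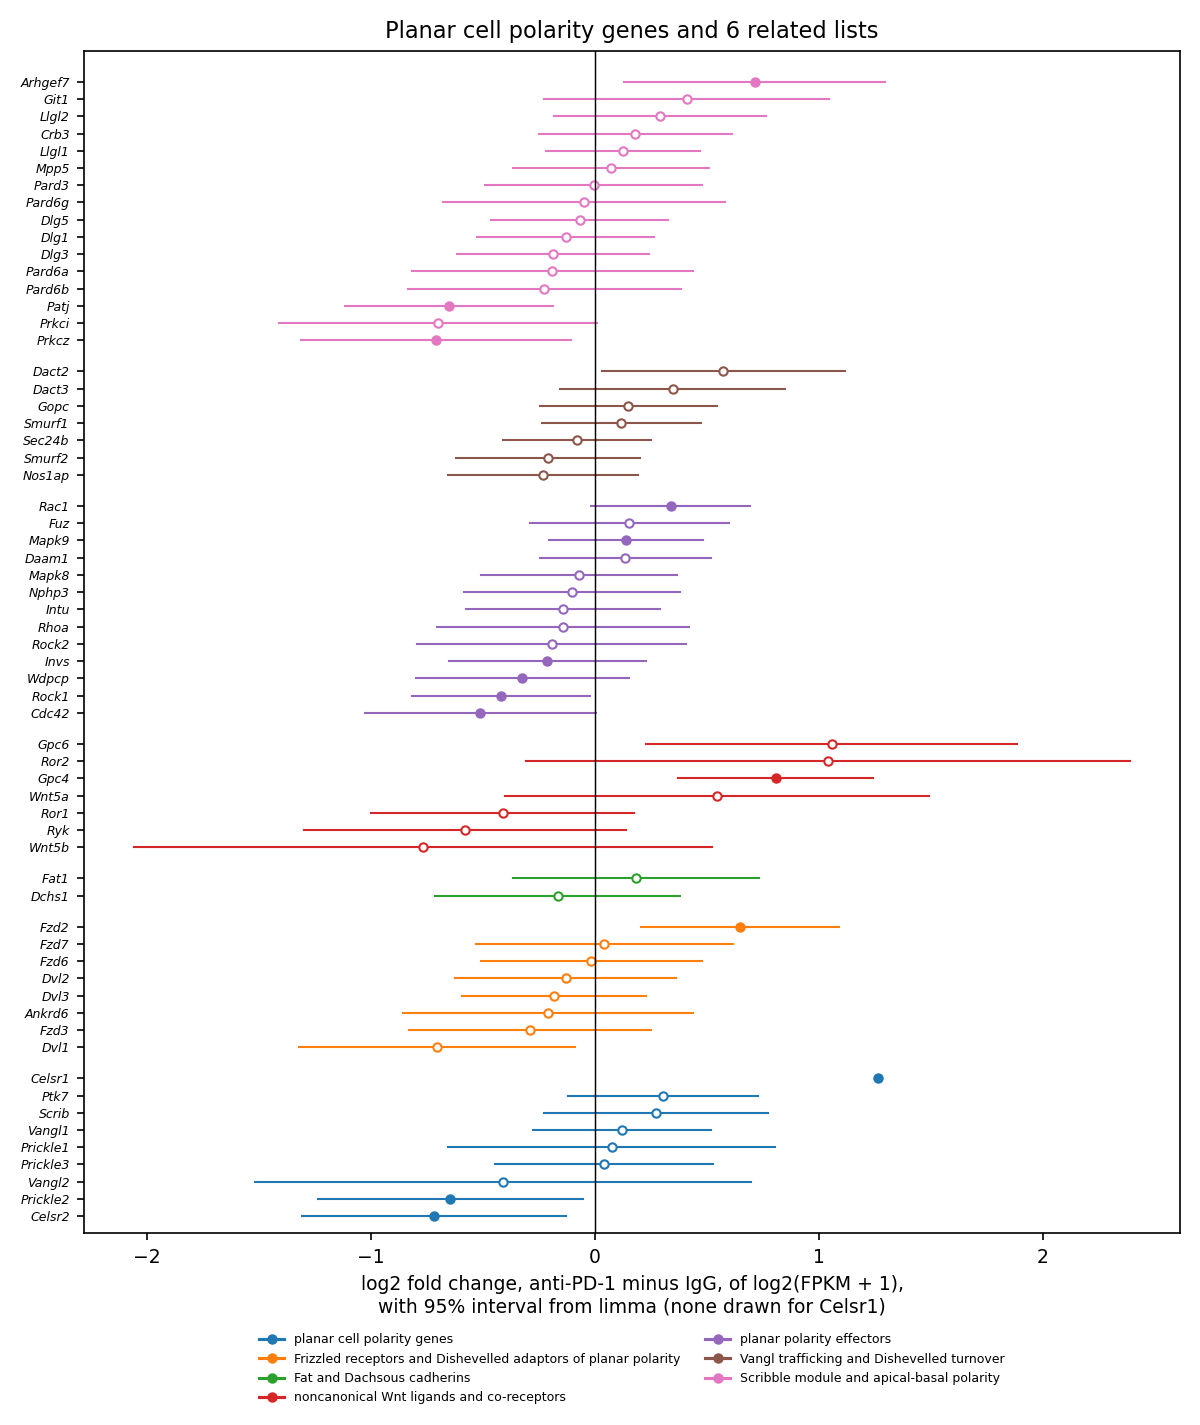
log2 fold change with its 95% interval from limma for 9 members and 53 other planar polarity genes, colored by list, with no interval for Celsr1, which selected the set. Filled points mark genes whose groups do not overlap, and Celsr1 at 1.26, Celsr2 at -0.72 and Prickle2 at -0.65 are the filled points among the members.

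Markers of other cell types varied between tumors beside these values. The summed FPKM of 10 fibroblast markers was 92.1 to 249 in IgG and 102 to 371 in anti-PD-1 tumors, and that of 8 macrophage markers 376 to 602 in IgG and 412 to 799 in anti-PD-1 tumors, with overlap in both. Among the tested markers, the log2 fold change was above 0 for 8 of 8 macrophage, 8 of 8 skeletal muscle, 8 of 10 luminal and 6 of 10 fibroblast genes. It was above 0 for 2 of 4 neural and Schwann cell, 1 of 8 endothelial, 1 of 7 basal and myoepithelial, 0 of 2 adipocyte and 0 of 1 T cell genes. Of all 15069 tested genes, 7651 were above 0. Markers of a cell type can vary together, as the skeletal muscle genes did, so these are not counts of independent genes. Among the macrophage genes, Adgre1 was at 0.0055. The macrophage marker Cd68 was higher past the threshold, with 18.1, 15.1 and 13.7 FPKM under IgG and 22.1, 30.5 and 29.1 FPKM under anti-PD-1. The 8 endothelial markers (19.2 to 25.6 in IgG and 12.9 to 24.1 in anti-PD-1 tumors), the 8 basal and myoepithelial markers (23.9 to 30.3 and 17.6 to 43.9) and the 8 adipocyte markers (5.93 to 10.7 and 3.93 to 9.28) overlapped as well, and among them the basal keratin Krt17 was lower past the threshold, at 0.523, 0.960 and 1.05 FPKM under IgG and 0.377, 0.106 and 0.0270 FPKM under anti-PD-1. Acta2, at 11.8 to 36.8 FPKM in anti-PD-1 tumors, made up most of the summed basal level there. The 8 T cell markers summed to 2.39 to 6.38 in IgG and 1.64 to 2.27 in anti-PD-1 tumors, without overlap but with a narrow gap of 2.27 against 2.39. These genes were near the floor, with Cd3e, Cd3d and Trac at 0 in at least 1 tumor and 0 to 30 recovered reads per tumor for Cd3e. Cd2 went the other way, with a mean of 0.197 FPKM in IgG and 0.305 FPKM in anti-PD-1 tumors, while the means of the others were lower under anti-PD-1. The 8 neural and Schwann cell markers summed to 227 to 347 in IgG and 217 to 312 in anti-PD-1 tumors, and the neuronal genes Tubb3, Snap25, Syt1 and Rbfox3 were at 0 in at least 1 tumor. The 8 skeletal muscle markers ran from 2.60 to 155 in IgG and from 1.74 to 166 in anti-PD-1 tumors. The part of any of these cells in the values of the planar polarity genes was not tested.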

How the data were processed

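The starting point was the RNAseq values that the authors deposited for 6 tumors. Per the labels and the methods of the study, the authors used Cutadapt 3.5 for trimming and RSEM 1.3.1 with a Bowtie2 2.4.1 index of mm10 for alignment and counting, and deposited FPKM values per Ensembl gene ID. How the FPKM was made, and whether strand was used, was not given in the sources used here. Of 54532 IDs, 54495 matched GENCODE M21 (GRCm38) and 37 did not. FPKM times merged exon length gave whole reads, within 0.1, for 97.0% to 97.3% of detected values in each tumor, and read totals are of IDs with whole reads in all tumors.

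FPKM was divided by median-of-ratios factors, and log2(FPKM + 1) of the 15069 genes with a mean deposited FPKM of at least 0.5 was compared in limma 3.58.1, R 4.3.3 (lmFit, eBayes with trend, two-sided, Benjamini-Hochberg over all tested genes). Single values had exact permutation tests. On simulated reads for 14234 genes, 175 of 200 changed genes (87.5%) were recovered at a limma adjusted p under 0.05, with 21 false calls. The simulation used 1 dispersion (0.1) for all genes and planted changes larger than those of Celsr2 and Prickle2. It therefore does not show how often changes of their size would be found. Python 3.11.15, pandas 2.3.3 and scipy 1.17.1 were used otherwise. Alternatives were another pseudocount, other filters, FPKM as deposited, quantile normalization, no trend, a replicate block, leaving out each tumor, and voom on recovered reads. Removal of chromosome medians was added after the data were seen. Reads shared with overlapping genes were looked up for the members only.

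Genes named were the 10 members, genes of the 6 related lists past the threshold without overlap, the 3 highest of each list, and the 3 most like and most opposite to Celsr1. The members and lists were chosen with earlier results of these data known.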

Additional observations from a re-analysis of the deposited data

How the results depend on the processing

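Over 15 alternatives and the 8 tested members other than Celsr1, 105 of 120 fits kept the direction and the side of the threshold, 9 no longer passed it (4 for Celsr2 and 5 for Prickle2) and 6 turned the sign. The signs that turned were those of Vangl2 without IgG replicate 1 (0.16), of Prickle1 without anti-PD-1 replicate 3 (-0.29) and with chromosome medians removed (-0.090), and of Prickle3 without IgG replicate 1 (-0.0016), IgG replicate 2 (-0.068) or anti-PD-1 replicate 2 (-0.037). Over the fits that leave out 1 tumor the log2 fold change ran from -0.81 to 0.16 for Vangl2, from -0.29 to 0.29 for Prickle1, from -0.068 to 0.19 for Prickle3, from 0.035 to 0.22 for Vangl1, from 0.14 to 0.44 for Scrib and from 0.20 to 0.43 for Ptk7. When single tumors were left out, the members that were lower past the threshold numbered 0 to 2, the other planar polarity genes higher 1 to 6 and lower 0 to 6, all genes higher 366 to 1001 and all genes lower 375 to 1233, the highest with IgG replicate 1 left out and the lowest with IgG replicate 2 left out for all genes. Without a filter on low FPKM 1 member was lower, with quantile normalization 5 of the other planar polarity genes were lower, and with chromosome medians removed 0 of these and 444 of all genes were lower. The causes were not tested. The genes at a limma adjusted p under 0.05 were 12 without IgG replicate 1, 1 without IgG replicate 3, 1 with voom on recovered reads and 0 otherwise, and none was a member. Deviations of tumors with the same replicate number correlated at r = -0.16, 0.0051 and 0.19, within the -0.26 to 0.24 of tumors with different numbers. These values cannot show whether tumors with the same number were handled together, and this was not tested. With the replicate block 2 members were lower, as without it, and 1725 genes had an unadjusted p under 0.05.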
